A study of Macaca fascicularis with 2 samples.

Results

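*CCR4*, *CCR6*, *CCR9*, *CCR10*, *CXCR3*, *CXCR4* and *FUT7*, genes that steer T cells towards skin, gut, inflamed tissue or bone marrow, were followed in CD4+CD8+ double positive (DP) T cells of monkey blood. The members are the rows of the gene table with these 7 symbols, out of 29324 genes listed, and each symbol matched 1 row. The question was in which DP T cells each gene was detected, how often the same cell held a pair of them, and how their levels ran over the CD4 and CD8 antibody tags. The cells came from peripheral blood of 1 untreated cynomolgus monkey (*Macaca fascicularis*) aged 10 years, in 1 preparation, by CD4 microbeads followed by CD8 microbeads. A 5′ gene expression library and a library of CD4 and CD8 antibody tags were made from the same cells and share all 8953 barcodes, with 0 duplicated. There is no second animal, no other tissue and no CD4 or CD8 single positive sample to compare with.

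Chemokine receptors are G protein-coupled receptors that turn a chemokine gradient into movement and integrin arrest. *CCR4*, the receptor of *CCL17* and *CCL22*, and *CCR10*, the receptor of *CCL27* and CCL28, are known from skin-homing T cells, and *FUT7* makes the fucosylated glycans on PSGL-1 (*SELPLG*) that bind the selectins of inflamed skin vessels. *CCR9* is the receptor of CCL25 in the small intestine, *CCR6* the *CCL20* receptor of Th17 cells, *CXCR3* the receptor of interferon-induced chemokines on Th1 and cytotoxic cells, and *CXCR4* the *CXCL12* receptor that most blood T cells carry.

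After filtering, 8830 cells with 31677119 gene UMIs (unique molecular identifiers, each counted once per captured molecule) remained, at a median of 3145 UMIs and 1127 genes per cell. Levels are given as UMIs per 1000000 gene UMIs (CPM) summed over the cells of a group, with exact 95% Poisson intervals, and shares of cells with exact Clopper-Pearson intervals. All cells are from 1 animal and 1 pair of libraries, so these intervals cover counting error only, and no test between conditions was possible. The clusters were built without the members, the other homing genes, the chemokines or the glycan genes. The mean log2 ratio of 4 T cell genes in a cluster against all other cells lay between -0.27 and 0.48 in 17 clusters, was -1.16 in the innate-like cluster, and was -2.04 and -2.46 in 162 B-like cells, whose leading genes include *MS4A1*, *CD79B* and *CD74*, and 19 monocyte-like cells led by *LYZ*. The label of T cells thus held for most of the cells, and these last 2 clusters are kept apart below. The doublet caller Scrublet called 0 cells at its own threshold of 0.675, which for 8830 cells means that it did not work, so doublets stay in the data.

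*CXCR4* was common in these cells and the other members were sparse. *CXCR4* had 6657 UMIs in 4117 cells, or 46.6% of cells and 210.2 CPM (205 to 215). *CXCR3* had 757 UMIs in 541 cells (6.13%), *CCR6* 351 in 263 (2.98%), *CCR9* 243 in 136 (1.54%), *CCR4* 186 in 149 (1.69%), *FUT7* 100 in 85 (0.963%) and *CCR10* 57 in 42 (0.476%). Most positive cells held a single UMI, for example 123 of the 149 *CCR4* cells and 71 of the 85 *FUT7* cells. *CCR9* was the member with the most uneven counts, with up to 17 UMIs in a cell and 46 cells with more than 1. Because deeper cells show a rare transcript more often, each cell was also thinned to 2200 UMIs, which kept 8076 cells and left out 754. The thinned shares were 36% for *CXCR4*, 3.69% for *CXCR3*, 1.5% for *CCR6*, 0.966% for *CCR9*, 0.854% for *CCR4*, 0.508% for *FUT7* and 0.334% for *CCR10*. A cell without a UMI is therefore no evidence that the gene is off.

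Naive-like cells, 5224 cells or 59.2% of all, were used as a reference for the 6 sparse members. At equal depth *FUT7* was found in 0 of 4714 naive-like cells, which allows a share of up to 0.0636%, *CCR6* in 0.0212%, *CCR10* in 0.0424%, *CCR4* in 0.0636%, *CXCR3* in 0.0849% and *CCR9* in 0.233%. In the 3425 cells outside the naive-like, B-like and monocyte-like clusters, called non-naive cells here, the shares were 1.19%, 3.64%, 0.722%, 2.07%, 9.1% and 1.91% in the same order. These intervals did not overlap for any of the 6 genes. No count over all genes was made to set beside this. The median depth was 2858 UMIs in naive-like and 3779 in non-naive cells before thinning. The non-naive cells include the 53 innate-like cells and 144 cells of a shallow cluster (median 938 UMIs, 12.1% mitochondrial UMIs). The 6 sparse members were thus found mostly in the non-naive cells, which held 82.7% (*CCR9*) to 96.9% (*CCR6*) of their UMIs. Of all 31677119 gene UMIs, the non-naive cells held 14587152. *CXCR4* ran the other way, with a thinned share of 40.1% (38.6 to 41.5) in naive-like and 30.9% (29.3 to 32.5) in non-naive cells. A second reference was 115 cells of the B-like cluster (median 4549 UMIs) in which *CD3D*, *CD3E*, *CD3G* and *TRAC* together gave no more than 1 UMI. Their thinned shares were 0 of 113 for *CCR4*, which allows up to 2.65%, 0.885% for *FUT7*, 1.77% for *CCR6* and *CCR10*, 2.65% for *CXCR3* and 3.54% for *CCR9*. B lineage cells are known to carry several of these receptors, so their shares are no clean background. With 113 cells their intervals span the non-naive shares of all these genes but *CXCR3*. The naive-like cells are the reference with low levels of these 6 genes. For *CCR9*, with 13 of its 19 naive-like UMIs in naive-like cluster 1, this level need not be background.

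**Figure D1:**
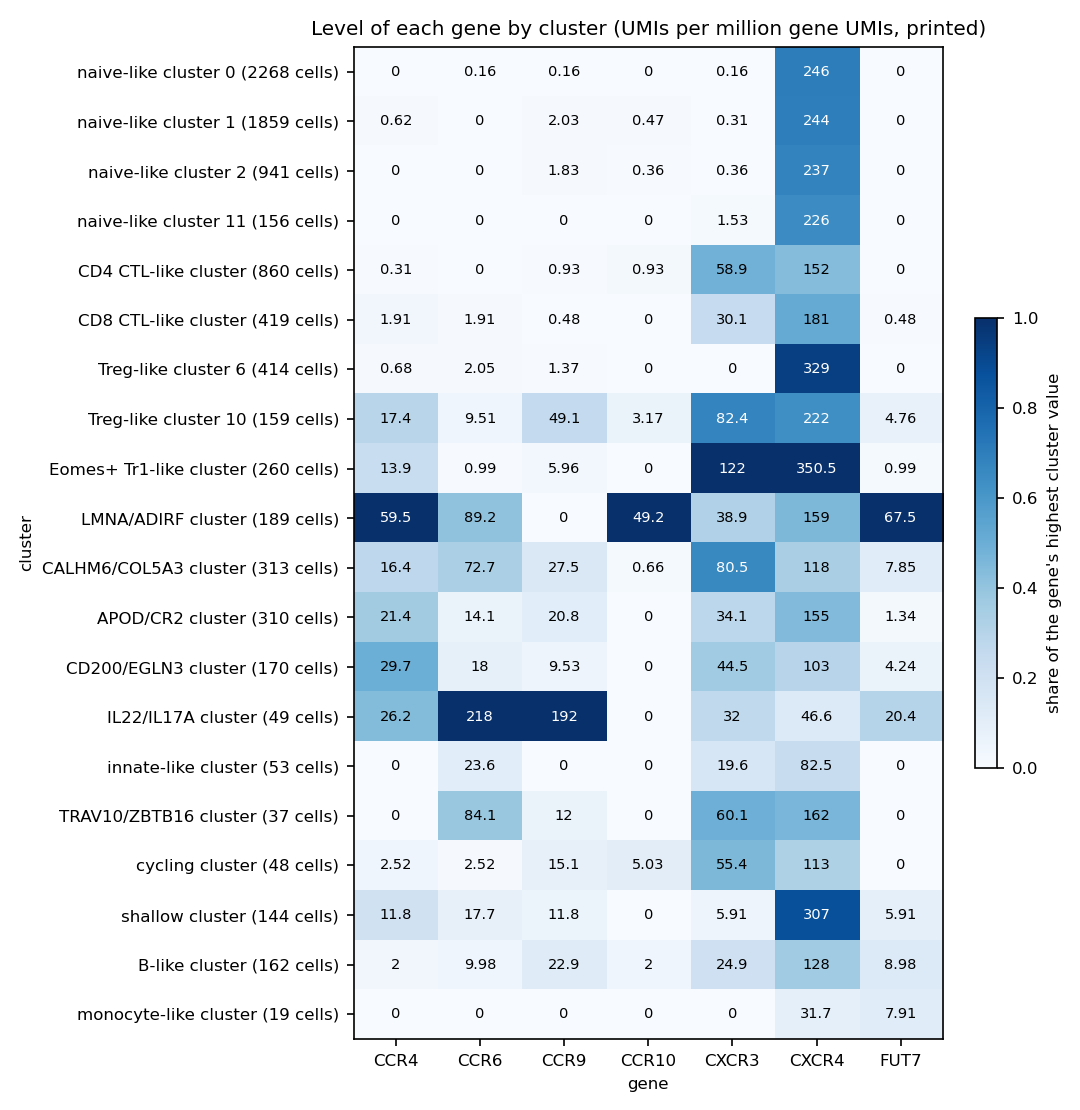
Level of each member (columns) in each cluster (rows, with its number of cells), printed in CPM; colour is the level as a share of the gene's highest cluster, so colours do not compare genes. *CCR4*, *CCR10* and *FUT7* are darkest in the *LMNA*/*ADIRF* cluster, *CCR6* and *CCR9* in the *IL22*/*IL17A* cluster, and *CXCR3* and *CXCR4* in the Eomes+ Tr1-like cluster.

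The skin-associated genes were highest in a small cluster of 189 cells that was led by *LMNA*, *ADIRF*, *MMP25*, *CRIP2*, *REELD1* and *TNFSF10*. This *LMNA*/*ADIRF* cluster carried 3 of 3 Th2 markers and 4 of 5 Th17 markers, none of them among its 10 leading genes, so it was left unnamed. Its median depth was 4443 UMIs and 125 of its 189 cells lay in the CD4hiCD8hi gate. It held 2.14% of the cells but 75.4% of the *CCR10* UMIs, 59% of the *FUT7* UMIs, 28% of the *CCR4* UMIs and 22.2% of the *CCR6* UMIs.

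*CCR10*, with 43 of its 57 UMIs there, reached 49.2 CPM (35.6 to 66.3) in the *LMNA*/*ADIRF* cluster. The next cluster was the cycling one at 5.03 CPM (0.609 to 18.2, 2 UMIs), and every other cluster was at 3.17 CPM or lower. *CCR10* was at 0 UMIs in the 310 *APOD*/*CR2*, 170 *CD200*/*EGLN3*, 260 Eomes+ Tr1-like and 49 *IL22*/*IL17A* cells, where 3 counts would be 2.01, 3.18, 2.98 and 8.73 CPM. *CCR10* was thus concentrated in a single cluster.

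*FUT7*, the fucosyltransferase, showed the same peak, with 59 of 100 UMIs and 67.5 CPM (51.4 to 87.1) in the *LMNA*/*ADIRF* cluster. The *IL22*/*IL17A* cluster followed at 20.4 CPM (8.19 to 42, 7 UMIs), then the B-like cluster at 8.98 (4.11 to 17), the monocyte-like cluster with 1 UMI and the *CALHM6*/*COL5A3* cluster at 7.85 (4.06 to 13.7). The intervals of these followers overlap. *FUT7* was at 0 UMIs in all 4 naive-like clusters and in the 860 CD4 CTL-like cells, where 3 counts would be 0.931 CPM.

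*CCR4* was highest in the same cluster but less confined to it. It reached 59.5 CPM (44.4 to 78, 52 UMIs) in the *LMNA*/*ADIRF* cluster, against 29.7 (19.7 to 42.9) in the *CD200*/*EGLN3*, 26.2 (12 to 49.7) in the *IL22*/*IL17A*, 21.4 (14.7 to 30.2) in the *APOD*/*CR2*, 17.4 (8.71 to 31.2) in Treg-like cluster 10 and 16.4 (10.6 to 24.2) in the *CALHM6*/*COL5A3* cluster. Intervals of neighbours in this order overlap, apart from the first, whose interval overlaps only that of the *IL22*/*IL17A* cluster among these. CD4 CTL-like cells had 1 *CCR4* UMI in 860 cells.

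*CCR6* had its highest level in the *IL22*/*IL17A* cluster, 49 cells that carried 5 of 5 Th17 markers and whose leading genes included *IL22*, *IL17A* and *IL26*. *CCR6* is not in the Th17 list used here. The *CCR6* level there was 218 CPM (172 to 274), with a UMI in 77.6% of cells. The *LMNA*/*ADIRF* cluster followed at 89.2 CPM (70.5 to 111), the 37 cells of a cluster led by *TRAV10* and *ZBTB16* at 84.1 (46 to 141), and the *CALHM6*/*COL5A3* cluster at 72.7 (59.8 to 87.5). These last 3 overlap one another. *CCR6* was absent from the CD4 CTL-like cluster at this depth, with 0 UMIs in 860 cells.

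*CCR9*, the gut receptor, peaked in the same 49 *IL22*/*IL17A* cells at 192 CPM (149 to 244, 66 UMIs in 22 cells). Treg-like cluster 10 (159 cells) came next at 49.1 CPM (33.4 to 69.8), then the *CALHM6*/*COL5A3* cluster at 27.5 (19.8 to 37.2), the B-like cluster at 22.9 (14.5 to 34.4) and the *APOD*/*CR2* cluster at 20.8 (14.1 to 29.5). The first interval lies above all others, and the later ones overlap with their neighbours. The *LMNA*/*ADIRF* cluster, highest for *CCR4*, *CCR10* and *FUT7*, had 0 *CCR9* UMIs in 189 cells, where 3 counts would be 3.43 CPM. The other Treg-like cluster (414 cells) had 2 *CCR9* UMIs, or 1.37 CPM (0.166 to 4.94). The 2 Treg-like clusters thus differed in *CCR9* beyond counting error.

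*CXCR3* was spread over helper-like and cytotoxic clusters. It was highest in Eomes+ Tr1-like cells at 122 CPM (102 to 146), followed by Treg-like cluster 10 at 82.4 (61.6 to 108) and the *CALHM6*/*COL5A3* cluster at 80.5 (66.9 to 96.1). The 860 CD4 CTL-like cells were at 58.9 CPM (50.9 to 67.9) and held 25.1% of all *CXCR3* UMIs, more than any other cluster. The 419 CD8 CTL-like cells were lower, at 30.1 CPM (23.1 to 38.5). Treg-like cluster 6 had 0 *CXCR3* UMIs in 414 cells, where 3 counts would be 2.05 CPM. The 2 Treg-like clusters were thus on opposite sides for this gene too.

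*CXCR4* was found in every cluster and was lowest where *CCR6* was highest. The Eomes+ Tr1-like cells had 350.5 CPM (315 to 389), Treg-like cluster 6 had 329 (301 to 360.3), and the naive-like clusters 226 to 246. It was lowest among T cell clusters in the *IL22*/*IL17A* cells at 46.6 CPM (26.6 to 75.6), followed by the innate-like cells at 82.5, the *CD200*/*EGLN3* cells at 103 (83.3 to 125), the cycling cells at 113 (82.6 to 151) and the *CALHM6*/*COL5A3* cells at 118 (102 to 137). The shallow cluster, 144 cells with a median of 938 UMIs and 12.1% mitochondrial UMIs, was at 307 CPM (229.5 to 403). Across the 16 clusters with at least 50 cells, Pearson's r of the log2 levels was -0.56 for *CCR6* and *CXCR4*, a description over clusters of the same library and animal that leaves out the 49-cell *IL22*/*IL17A* cluster.

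Over the same 16 clusters, again without the *IL22*/*IL17A* cluster in which *CCR6* and *CCR9* peaked, the pattern of *FUT7* was most like those of *MMP25* (r = 0.92), *MARCHF8* (0.89) and *CCR10* (0.89), out of 10175 genes ranked. *CCR10* ranked *REELD1* (0.95), *IDO1* (0.94) and *MMP25* (0.93) first. *CCR4* ranked *EGLN3* (0.93) first, *CCR6* *PAK3* and *MAMDC2* (both 0.89), *CCR9* *PCMTD1* (0.82), *CXCR3* *TENT5C* (0.92) and *CXCR4* *MBTPS2* (0.83). Among the members, r was 0.78 for *FUT7* and *CCR6*, 0.74 for *FUT7* and *CCR4*, 0.73 for *CCR4* and *CCR6*, and -0.09 for *CCR9* and *CCR10*. These values rest on low counts in several clusters and share library and depth.

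The pairs of members found in the same cell followed the clusters. At equal depth, 11 of the 21 pairs had at least 3 cells with both genes and at least 2 times the number that the product of the shares of each gene gives. This count depends on the draw, at 7 pairs with another random seed and 3 when cells were thinned to 1500 UMIs. No count over pairs of other genes was made to set beside it. Genes that are both rare in naive-like cells share more cells than this product even if independent among the other cells. The pairs that led all held *CCR10* or *FUT7*, although each rests on few cells. *CCR10* and *FUT7* shared 4 cells where the product is 0.137, *CCR6* and *FUT7* 9 against 0.614, *CCR4* and *FUT7* 5 against 0.35, *CCR4* and *CCR10* 3 against 0.231, and *CCR6* and *CCR10* 5 against 0.405. Of the 27 *CCR10* cells, 14.8% (4.19 to 33.7) also had *FUT7*, against 0.46% (0.324 to 0.633) of cells without *CCR10*. The gut receptor *CCR9* shared 9 cells with *CCR6* against 1.17, and 2 with *CCR4* against 0.666. *CCR9* and *CCR10* shared 0 cells against a product of 0.261, a number too small to show avoidance.

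Without thinning, the pairs had more cells and could be placed. All 12 cells with *CCR10* and *FUT7* (product 0.404) were in the *LMNA*/*ADIRF* cluster, as were 13 of the 14 with *CCR6* and *CCR10* (1.25), 8 of the 9 with *CCR4* and *CCR10* (0.709), 11 of the 14 with *CCR4* and *FUT7* (1.43), 16 of the 28 with *CCR6* and *FUT7* (2.53) and 17 of the 36 with *CCR4* and *CCR6* (4.44). The pair *CCR6* and *CCR9* had 35 cells (4.05), of which 19 were in the *IL22*/*IL17A* cluster. For *CCR6* and *CXCR3* it was 51 cells (16.1), of which 29 were in the *CALHM6*/*COL5A3* cluster. The median depth of cells with *CCR10* and *FUT7* was 4636 UMIs and their highest 6064, and 0 of the 12 were among the 6% of cells with the highest Scrublet scores. For *CCR6* and *CCR9* the median was 6199, the highest 13435, and 3 of the 35 were among that 6%. Since Scrublet did not work on these cells and the pairs are few, its scores cannot decide whether such cells are doublets.

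Since naive-like cells have few UMIs of the genes of such a pair, the product of shares over all cells is low. The pairs were therefore counted again in the 3425 non-naive cells, also without thinning. *CCR10* and *FUT7* then had 12 cells against 0.81, *CCR6* and *CCR10* 14 against 2.72, *CCR6* and *FUT7* 27 against 5.52, *CCR4* and *FUT7* 14 against 3.13, *CCR6* and *CCR9* 33 against 7.65, and *CCR4* and *CCR6* 35 against 10.5. These 6 pairs stayed above 3 times the product, in counts that still hold the differences in depth between cells. *CXCR3* paired with *CCR6* (48 against 38.3), *CCR9* (17 against 15.8) and *FUT7* (15 against 11.4) near the product, and lay below it with *CCR4* (15 against 21.7) and *CCR10* (2 against 5.62). *FUT7* was rarely found with *CCR9*, in 1 cell against 2.28. *CXCR4* lay below the product with *CCR4* (41 against 64.4), and matched it with *CXCR3* (238 against 234).

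**Figure D2:**
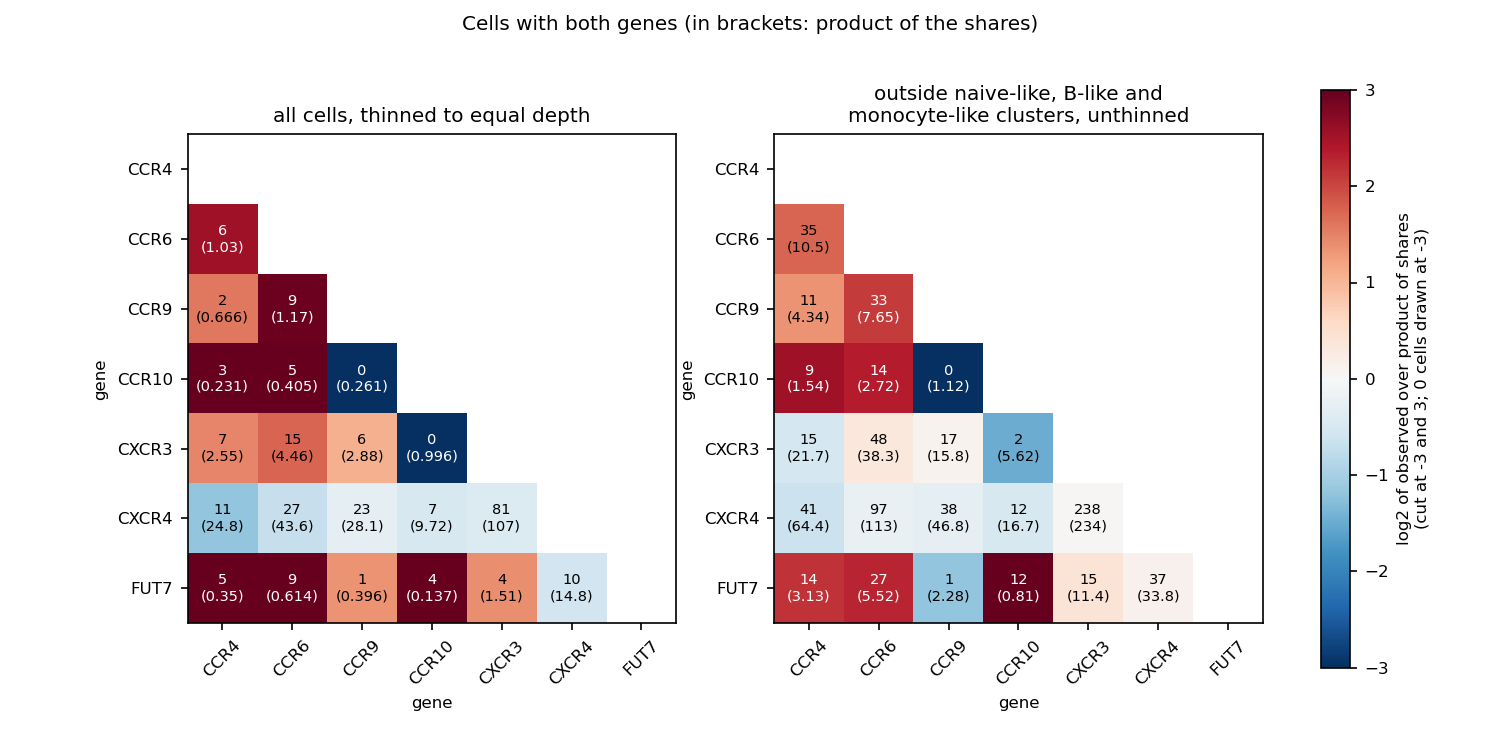
Cells with a UMI of both members for each pair, with the product of the shares in brackets; left, all cells thinned to 2200 UMIs; right, non-naive cells without thinning. Colour is the log2 of the observed over the product, cut at -3 and 3, so red pairs share more cells than the product and blue fewer. *CCR10* with *FUT7* is at the upper limit of the colours in both panels, and *CCR9* with *CCR10*, at 0 cells, is drawn at the lower limit.

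Leaving *CXCR4* aside, 7839 cells had a UMI of none of the other 6 members, 802 of 1, 155 of 2, 32 of 3 and 2 of 4. The cells with none had a median of 3052 UMIs and those with 2 a median of 5089, so depth moves with this count. The most frequent combinations were *CCR6* with *CXCR3* (38 cells), *CCR6* with *CCR9* (22), *CCR4* with *CCR6* (17), *CCR6* with *FUT7* (16) and *CCR9* with *CXCR3* (14). *CCR6* was in 4 of these 5. The most frequent combination of 3 was *CCR4*, *CCR6* and *CCR9*, in 8 cells.

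The antibody tags divide the cells at a CD4 tag count of 144 and a CD8 tag count of 419. The CD4hiCD8lo gate had 5758 cells, CD4hiCD8hi 2543, CD4loCD8hi 418 and CD4loCD8lo 111, of which 68 were B-like. The share of naive-like cells was 73.7%, 33% and 30.4% in the first 3 gates, and the median depths were 2949.5, 3778 and 3629.5 UMIs. The gates thus differ in their share of naive-like cells, so levels are given below over all cells and for non-naive cells alone. How far this share accounts for a level was not tested.

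Over all cells, 6 of the 7 members were at least 2-fold higher in CD4hiCD8hi than in CD4hiCD8lo cells and 0 were 2-fold lower, where 4.51% of the 10028 genes with at least 50 UMIs were higher and 1.19% lower by as much. The median log2 ratio was 1.53 for the members and 0.05 for all genes. *FUT7* was at 6.39 CPM (5 to 8.05) in CD4hiCD8hi and 1.2 (0.752 to 1.82) in CD4hiCD8lo cells, a log2 ratio of 2.41 (1.71 to 3.17). *CCR6* followed with 21.6 against 5.29 CPM (2.03, 1.68 to 2.38), *CCR9* with 13.8 against 4.2 (1.71, 1.31 to 2.13), *CXCR3* with 40.5 against 14 (1.53, 1.31 to 1.76), *CCR4* with 9.68 against 4.09 (1.24, 0.80 to 1.69) and *CCR10* with 2.75 (1.87 to 3.91) against 1.2 (0.752 to 1.82), or 2.29-fold. *CXCR4* was the exception, at 187 against 229 CPM (-0.29, -0.36 to -0.21). At equal depth the shares kept this order of the gates, for example 3.2% (2.53 to 3.98) against 0.771% (0.551 to 1.05) for *CCR6* and 7.23% (6.23 to 8.34) against 2.1% (1.73 to 2.53) for *CXCR3*.

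Among non-naive cells most of this difference was gone. *FUT7* alone of the 6 members with 50 UMIs was at least 2-fold higher in CD4hiCD8hi cells, at 8.79 CPM (6.87 to 11.1) against 3.17 (1.84 to 5.07), a log2 ratio of 1.47 (0.69 to 2.33), where 0.616% of 8924 genes were. *CCR6* was at 29.6 against 17.3 CPM (log2 0.77, 0.42 to 1.13), *CCR9* at 17.5 against 11 (0.67, 0.22 to 1.13) and *CXCR3* at 55.5 against 45.5 (0.29, 0.06 to 0.52). *CCR4* did not differ beyond counting error, with 13.4 against 13 CPM and a log2 ratio of 0.04 (-0.41 to 0.49), and *CCR10* had too few UMIs (31 and 17). *CXCR4* stayed lower, at 163 against 214 CPM (-0.39, -0.50 to -0.27).

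The 418 cells of the CD4loCD8hi gate held few UMIs of all members but *CXCR3* and *CXCR4*. It had 2 UMIs of *CCR4*, 7 of *CCR6*, 3 of *CCR9*, 3 of *CCR10*, 2 of *FUT7*, 31 of *CXCR3* and 299 of *CXCR4*. Against CD4hiCD8hi cells, 5 of 6 members tested were at least 2-fold lower, where 4.23% of 8889 genes were lower and 1.70% higher by as much. The log2 ratios were -2.98 (-6.04 to -1.09) for *CCR4*, -2.90 (-5.20 to -1.33) for *CCR9*, -2.38 (-5.46 to -0.48) for *FUT7*, -2.33 (-3.66 to -1.26) for *CCR6* and -1.09 (-1.67 to -0.57) for *CXCR3*. *CXCR4* did not differ beyond counting error, at 183 (163 to 205) and 187 CPM with a log2 ratio of -0.03 (-0.21 to 0.14). Against CD4hiCD8lo cells, *CCR4* and *CCR9* were 2-fold lower of 5 tested, where 6.87% of 9416 genes were lower and 5.21% higher, but both intervals hold 0 (-1.74, -4.81 to 0.16, and -1.19, -3.50 to 0.41). *CCR6* was at 4.29 CPM (1.72 to 8.84) against 5.29 there, and *CXCR3* at 19 (12.9 to 27) against 14. *CCR10* (1.84 against 1.2 CPM) and *FUT7* (1.23 against 1.2) had too few UMIs to compare.

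In non-naive cells the CD4loCD8hi gate was lower than both other gates for *CCR4*, *CCR6* and *CCR9*. Against CD4hiCD8lo cells, 3 of 5 members were at least 2-fold lower, where 4.77% of genes were: *CCR4* (1.87 against 13 CPM), *CCR6* (6.54 against 17.3) and *CCR9* (0.934 against 11, 1 UMI). Against CD4hiCD8hi cells it was 4 of 6, the same 3 and *FUT7* (1.87 against 8.79), where 5.04% of genes were. *CXCR3* was at 29 CPM (19.7 to 41.1), against 45.5 and 55.5 in the CD4hi gates. *CXCR4*, at 165 CPM (142 to 192), was below the 214 of CD4hiCD8lo cells but did not differ from the 163 of CD4hiCD8hi cells beyond counting error, and *CCR10* had 3 UMIs, too few to compare. Of the CD4loCD8hi cells, 190 were CD8 CTL-like, 113 naive-like cluster 11 and 33 innate-like.

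**Figure D3:**
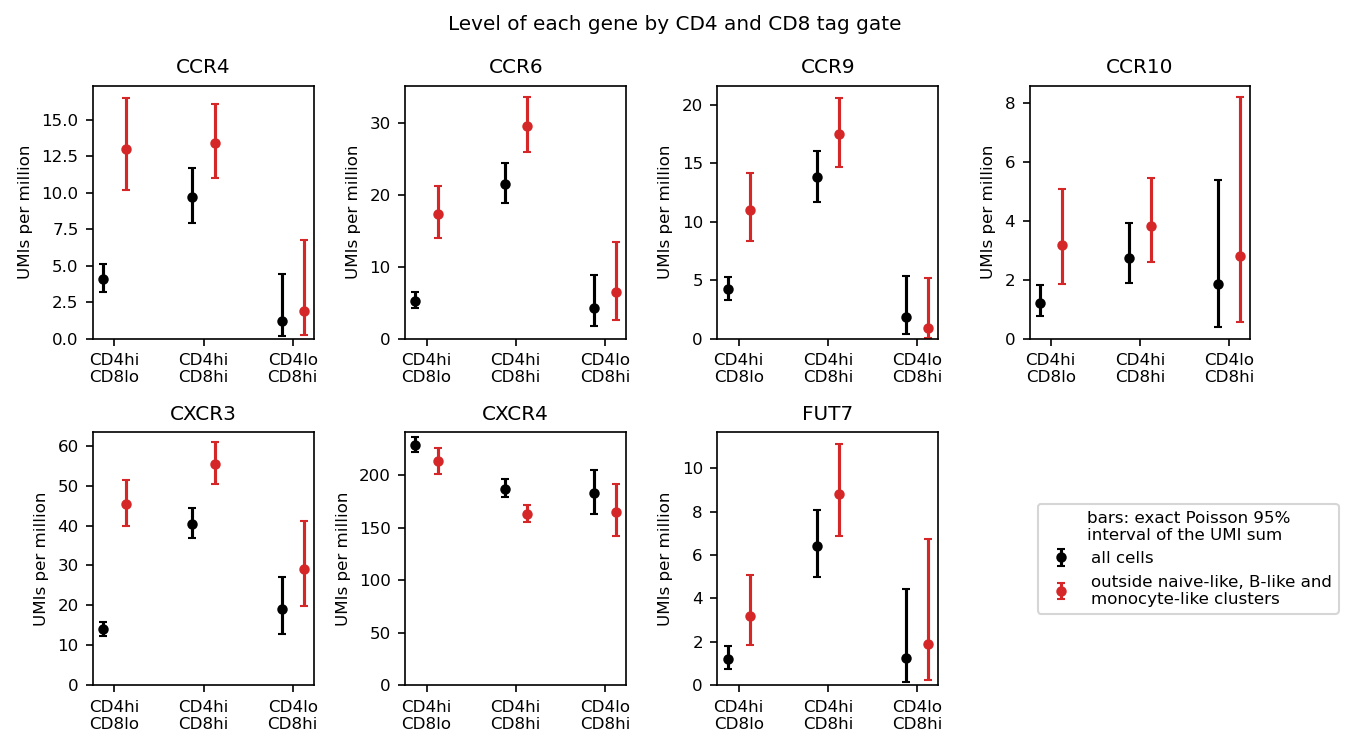
Level of each member in the 3 main tag gates, in CPM with exact 95% Poisson intervals, for all cells and for non-naive cells. *FUT7* stays higher in CD4hiCD8hi than in CD4hiCD8lo cells in both, *CCR4* differs over all cells only, and *CXCR4* runs against the others.

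The CD4-high cells were also divided into 6 bins of 1383 or 1384 cells by the CD8 tag. From the lowest to the highest bin the naive-like share went from 80.8% to 23.9%. *CCR6* went from 1.21 CPM (0.394 to 2.83) to 25.5 (21.9 to 29.6), *CXCR3* from 7.04 (4.71 to 10.1) to 41.3 (36.6 to 46.3), and *CCR9* from 2.67 (1.33 to 4.78) to 15.1 (12.4 to 18.3). *FUT7* had 0 UMIs in the lowest bin and 46 in the highest, at 6.64 CPM (4.86 to 8.85). *CCR10* also had 0 in the lowest and was at 3.32 CPM (2.1 to 4.98) in the highest. *CXCR4* went down, from 241 CPM (227 to 257) to 177 (167 to 187). *CCR4* was not graded, at 4.13, 2.58 and 1.79 CPM in the 3 lowest bins and 7.11, 8.88 and 9.96 in the 3 highest.

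With non-naive CD4-high cells alone, in 6 bins of 519 or 520, the order was kept for some members and lost for others. *FUT7* was at 0.565 CPM (0.0143 to 3.15, 1 UMI) in the lowest bin and then at 3.54, 6.73, 9.65, 8.7 and 7.91, and the intervals of the 4 upper bins overlap. *CCR6* ran from 11.3 (6.91 to 17.5) to 34.8 (27.8 to 43.1) in the fifth and 30 (24.2 to 36.8) in the sixth. *CXCR4* was highest in the lowest bin, at 247 CPM (224 to 271), against 156 (142 to 171) in the highest. *CCR4* had no order, with 14.1, 10.1, 17.3, 12.4, 15.7 and 10.6 CPM and overlapping intervals. *CXCR3* was at 31.7 CPM (23.9 to 41.1) in the lowest bin and between 50.5 and 64.8 in the others.

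**Figure D4:**
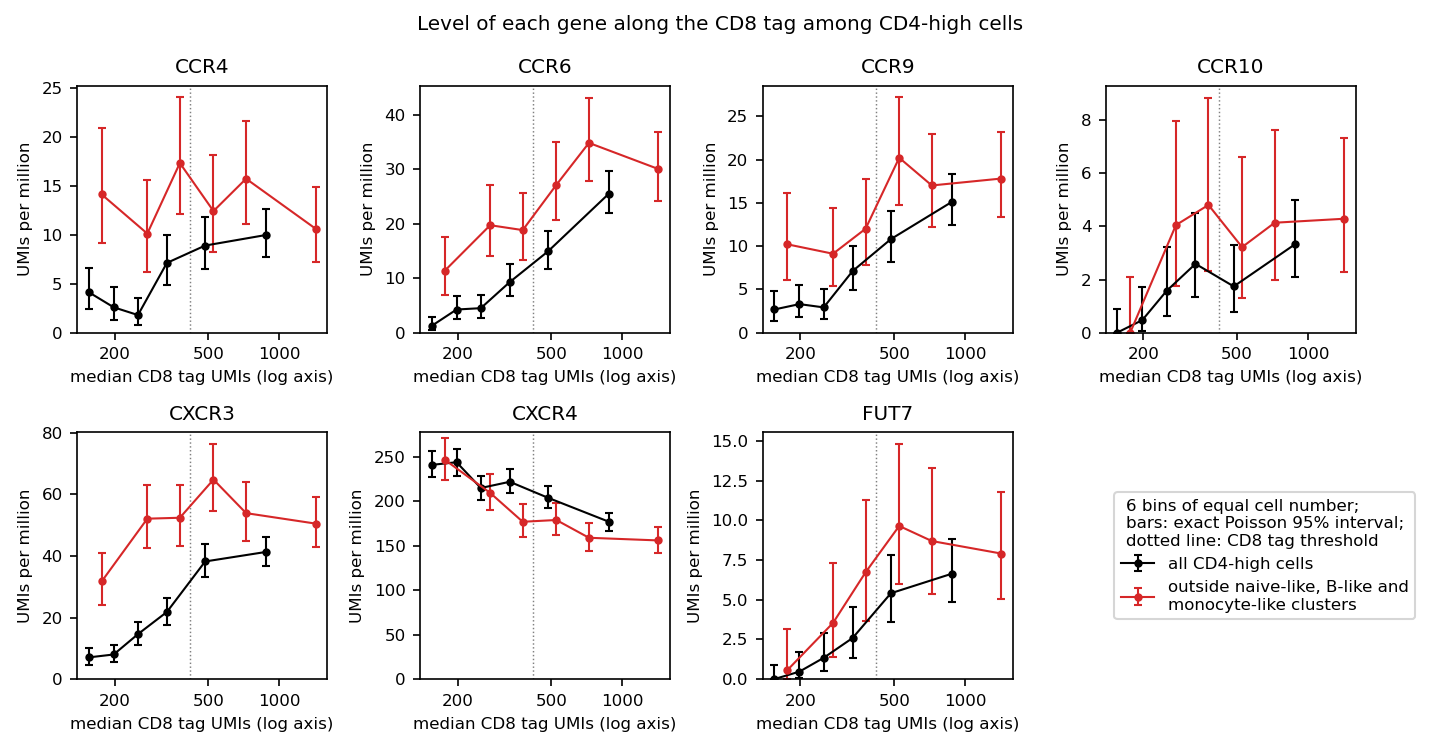
Level of each member along the CD8 tag in CD4-high cells, in 6 bins of equal cell number, against the median CD8 tag count of the bin on a log axis; bars are exact 95% Poisson intervals, for all cells and for non-naive cells. *CCR6* and *FUT7* are higher towards the right in both, *CXCR4* is lower, and *CCR4* has no order without naive-like cells.

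The gates were also compared within single clusters, where the intervals of some members overlapped and those of others did not. In the *LMNA*/*ADIRF* cluster, 125 CD4hiCD8hi and 63 CD4hiCD8lo cells had 73.4 (53.5 to 98.2) and 50.7 CPM (27 to 86.8) of *FUT7*, 62 (43.9 to 85.1) and 54.7 (29.9 to 91.7) of *CCR4*, 42.4 (27.7 to 62.1) and 58.6 (32.8 to 96.6) of *CCR10*, and 73.4 (53.5 to 98.2) and 129 (88.7 to 181) of *CCR6*. All 4 pairs of intervals overlap, which does not show that the levels are equal. For *CCR6* the overlap is narrow, from 88.7 to 98.2 CPM. Its higher value was in CD4hiCD8lo cells, the reverse of its direction over all cells. In the *APOD*/*CR2* cluster *CCR4* was higher in CD4hiCD8lo cells, at 37.1 CPM (23.3 to 56.2, 22 UMIs) against 9.33 (4.03 to 18.4, 8 UMIs), the reverse of its direction over all cells. In Treg-like cluster 10, *CXCR4* was at 262 CPM (216 to 313) in CD4hiCD8lo and 125 (79.5 to 188) in CD4hiCD8hi cells. In CD4 CTL-like cells *CXCR3* was at 49 (37.2 to 63.4) and 64.9 CPM (54.1 to 77.1) in these gates, with overlapping intervals. Of the 49 *IL22*/*IL17A* cells, highest for *CCR6* and *CCR9*, 40 were in the CD4hiCD8hi gate and 9 in the CD4hiCD8lo gate.

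Seen from the cells, those with a UMI of a sparse member had higher median CD4 and CD8 tags. The share above the CD8 tag count of 419 was 70.6% of *FUT7* cells, 69.2% of *CCR6* cells, 65.4% of *CXCR3* cells, 59.5% of *CCR10* cells, 59.1% of *CCR4* cells and 55.9% of *CCR9* cells, against 31.5% to 33.4% of cells without the gene in question. Among non-naive cells it was 78.7% of *FUT7* cells against 56.5% of cells without, 70.6% against 55.9% for *CCR6* and 60.8% against 56.9% for *CCR4*. For *CXCR4* the share was 33.9% with and 33.2% without the gene over all cells. The median CD4 tag among non-naive cells was 600.5 with and 415 without *CCR6*, 571 and 422 for *CCR4*, and 559 and 426 for *FUT7*. The median CD8 tags were 584 and 473, 520 and 487, and 613 and 483 in the same order. Cells with *CCR6* were also deeper, at a median of 4824 against 3713 UMIs, and tag counts were not scaled for depth. These shares therefore do not separate the CD8 tag from the CD4 tag or depth.

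What else the positive cells expressed was compared between non-naive cells with and without a UMI of each member, on summed CPM. Cells with a UMI were deeper, as for *CCR4* (median 4778 against 3747 UMIs) and *CCR9* (5129.5 against 3764), which CPM corrects for in level only. Cells with *CCR9* and cells with *CCR10* had opposite levels of the integrin chains *ITGA4* (α4), which joins *ITGB7* (β7) in the gut-homing integrin, and *ITGB1* (β1). *ITGA4* was at 671 CPM in *CCR9* cells against 363 in cells without *CCR9* (log2 0.89, 0.73 to 1.03), and at 39.4 in *CCR10* cells against 379 (-3.27, -4.58 to -2.22). *ITGB1* was at 49.2 CPM in *CCR9* cells against 263 (-2.42, -3.00 to -1.89) and at 929 in *CCR10* cells against 246 (1.91, 1.68 to 2.14). In cells, 94 of 104 *CCR9* cells had an *ITGA4* UMI and 23 an *ITGB1* UMI, whereas 5 of 37 *CCR10* cells had *ITGA4* and 36 had *ITGB1*. *FUT7* cells were like *CCR10* cells, with *ITGB1* at 858 against 238 CPM (1.85, 1.68 to 2.01) and *ITGA4* at 211 against 379.8 (-0.85, -1.18 to -0.53). *ITGB7* was higher in the cells of both kinds, at 277 against 155 CPM for *CCR9* and 349 against 158 for *CCR10*. *SELPLG* did not differ beyond counting error with *FUT7*, at 250.5 against 224 CPM (0.16, -0.15 to 0.45).

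*IL23R*, a receptor of Th17 cells, went with *CCR6*, *CCR9* and *FUT7*. It was at 23.1 against 2.42 CPM with *CCR6* (9.55-fold), 11.9 against 4.07 with *CCR9* (log2 1.55, 0.17 to 2.68, 7 UMIs) and 20.9 against 3.94 with *FUT7* (2.40, 1.12 to 3.48). The 37 *CCR10* cells had 0 UMIs of *IL23R*, which decides nothing at this depth, since the interval of the log2 ratio reaches up to 2.27. *GPR15*, a large-bowel homing receptor, was at 34 against 3.86 CPM with *CCR9* (3.14, 2.32 to 3.90) and 21 against 3.41 with *CCR6* (2.62, 1.90 to 3.33). The Th2 factor *GATA3* was at 315 against 131 CPM with *CCR10* (1.27, 0.86 to 1.65), 284 against 129 with *FUT7* (1.14, 0.85 to 1.42) and 209 against 129 with *CCR4* (0.69, 0.45 to 0.93). *PTGDR2*, a Th2 receptor, had 5 UMIs in *CCR4* cells and 13 in the others (2.77, 0.93 to 4.35). Cells with *CCR6* shared this, with 6 *PTGDR2* UMIs against 12 in the others (2.26, 0.56 to 3.78). *GATA3* (0.50, 0.30 to 0.69) and *IL4R* (0.39, 0.15 to 0.62) were also higher with *CCR6*. *KLRB1* (CD161) was at 434 against 119 CPM with *CCR10* (1.86, 1.51 to 2.19) and *IL4R* at 171 against 92.5 with *CCR4* (0.89, 0.62 to 1.15).

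The cytotoxic genes *GZMB* and *CX3CR1* were low in cells with *FUT7*, *CCR4*, *CCR9* or *CCR6*. In cells with *CCR10* their summed levels were less low, but these rest on few cells. *GZMK* did not follow this order, with log2 ratios of -2.29 with *CCR10* (8 UMIs in 2 cells), -0.77 with *CCR4* and -0.92 with *CCR9*. *EOMES* did not differ beyond counting error with *CCR4* (-0.35, -1.08 to 0.29) or *CCR9* (-0.27, -1.09 to 0.44). *GZMB* (granzyme B) was at 23.5 against 1893 CPM with *FUT7* (log2 -6.33, -7.46 to -5.41), 105 against 1917 with *CCR9* (-4.19, -4.57 to -3.83), 133 against 1940.4 with *CCR4* (-3.87, -4.16 to -3.59) and 242 against 2012 with *CCR6* (-3.06, -3.22 to -2.90), but 856 against 1856 with *CCR10* (-1.12, -1.36 to -0.89). The 152 *GZMB* UMIs with *CCR10* came from 4 of 37 cells (10.8%), and the interval does not cover differences between cells. The share of cells with *GZMB* was 5.95% with *CCR6*, 4.9% with *CCR4*, 4.81% with *CCR9* and 2.67% with *FUT7*. *CX3CR1*, the fractalkine receptor of cytotoxic cells, had 0 UMIs in the 75 *FUT7* cells, 2 with *CCR9*, 3 with *CCR4* and 10 with *CCR6*. With *CCR10* it was at 45 against 94 CPM (-1.06, -2.28 to -0.08), from 8 UMIs in 4 cells. The Th1 factor *TBX21* had 1 UMI in *CCR4* cells and 12 in *CCR6* cells (-2.01, -2.97 to -1.19). *CXCR3* cells had *GZMB* at 1740.3 against 1867 CPM (-0.10, -0.15 to -0.06) and *GZMK* at 366 against 185 (0.99, 0.88 to 1.10). *EOMES* was at 42.9 against 30.3 CPM with *CXCR3* (0.51, 0.19 to 0.81), and *LEF1*, a transcription factor of naive T cells, was lower (-0.86, -1.08 to -0.66). *CXCR4* cells had more *EOMES* (0.64, 0.37 to 0.91), *GZMK* (0.64, 0.53 to 0.74) and *CTLA4* (0.59, 0.32 to 0.86), all by less than 2-fold.

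**Figure D5:**
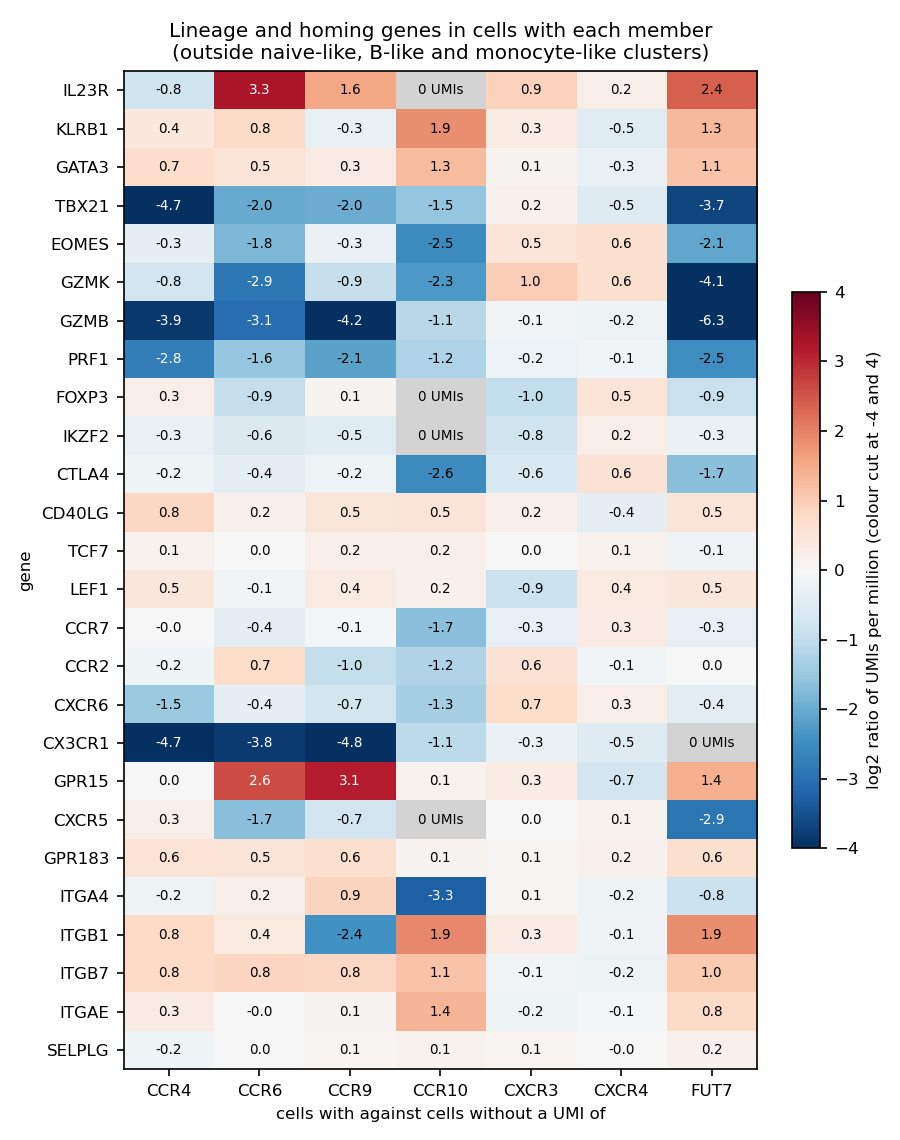
Log2 ratio of the summed level of lineage and homing genes between non-naive cells with and without a UMI of each member; grey cells have 0 UMIs in the positive cells, and colours are cut at -4 and 4. *ITGA4* and *ITGB1* are opposite in the *CCR9* and *CCR10* columns, *IL23R* is high with *CCR6* and *FUT7*, and *GZMB* and *CX3CR1* are low with *CCR4*, *CCR6*, *CCR9* and *FUT7* but not with *CXCR3*.

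Over all genes and all cells, some leading genes of each sparse member also led the cluster in which it peaked. This did not hold for *CXCR4*. *CCR10* cells were led by *FUT7* (75.3 against 2.7 CPM, log2 4.80, 3.90 to 5.60), *ADIRF* (4.62) and *FAM3B* (4.45), and *FUT7* cells by *REELD1* (5.46, 4.59 to 6.29) and *CCR10* (4.75, 3.82 to 5.62). *CDK1* (4.36), *TNF* (4.37) and *TNFSF9* (3.90) also ranked high for these 2 genes but came from 3, 7 and 5 cells. *CCR6* cells were led by *IL23R* (4.43) and *COL5A3* (4.41), which are leading genes of the *CALHM6*/*COL5A3* cluster and not of the *IL22*/*IL17A* cluster. The leading genes of *CCR9* cells included *CHN1* (3.63), *CALHM6* (3.05) and *CCR6* (3.01). *CCR4* cells were led by *MMP25* (4.01, 3.34 to 4.64), *ADIRF* (3.35) and *PHLDA1* (3.25), with *EGLN3* (2.86) in 55 of 149 cells. *CXCR3* cells were led by *IFNG* (2.20, 1.81 to 2.59) and *GZMK* (2.15, 2.04 to 2.26). *CXCR4* cells were led by *OTUD5* at only 0.44 (0.29 to 0.58). Among non-naive cells *LZTFL1*, which in RefSeq is an adjacent protein-coding gene of *CCR9*, was among the leading genes of *CCR9* cells at 44.2 against 4.86 CPM (3.18). In RefSeq 4 of the 7 members (*CCR4*, *CCR9*, *CCR10* and *FUT7*) overlap a long non-coding RNA locus, and how the counting treated these was not tested.

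The other homing genes of the list gave a wider frame. Of 27 such genes reported here, 22 are in the gene table and 14 had 50 UMIs over the CD4hi gates. Of these 14, 4 were at least 2-fold higher in CD4hiCD8hi than in CD4hiCD8lo cells and 0 were 2-fold lower. Among all genes 4.51% were higher and 1.19% lower by as much. The 4 were the inflammatory receptors *CXCR6* (log2 2.29), *CCR2* (2.06) and *CX3CR1* (1.62) and the gut receptor *GPR15* (2.09). *CCR7*, the lymph node receptor, was at -0.80. In CD4loCD8hi cells, 4 of 13 were higher and 1 (*CCR7*) lower than in CD4hiCD8lo cells, where 5.21% of all genes were higher and 6.87% lower. The 1 lower gene of 13 is thus near the share of all genes. Against CD4hiCD8hi cells, 0 of 14 were higher and 3 lower (*CXCR5*, *GPR15* and *GPR183*), where 1.70% of all genes were higher and 4.23% lower. Among non-naive cells *GPR15* alone was past 2-fold between CD4hiCD8hi and CD4hiCD8lo cells (1.19, 0.37 to 2.09), where 0.616% of all genes were higher. Of 13 genes of selectin ligand synthesis, 10 are in the table and 6 had 50 UMIs. Of these 6, *FUT7* alone was 2-fold higher in CD4hiCD8hi cells, where 4.51% of all genes were. Of 18 chemokine genes, 14 are in the table and only *CCL5* had 50 UMIs, at 432 against 98 CPM (2.14). The ligands of *CCR4* (*CCL17*, *CCL22*) and of *CXCR4* (*CXCL12*) had 0 UMIs in these 2 gates, and *CCL27*, a ligand of *CCR10*, had 14. Of 28 lineage genes reported here, 24 are in the table and 9 of 21 with 50 UMIs were 2-fold higher in CD4hiCD8hi than in CD4hiCD8lo cells, among them *IL23R*, *GZMB* and *EOMES*, where 4.51% of all genes were. Among non-naive cells 1 of 20 was higher, *IL23R* (1.60, 0.63 to 2.69), where 0.616% of all genes were, and the Treg genes were lower, with log2 ratios of -2.08 for *FOXP3*, -1.58 for *CTLA4*, -1.53 for *IKZF2* and -1.35 for *IL2RA*.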

How the data were processed

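The deposited files hold raw UMI counts per gene and antibody tag for 1 droplet preparation. The authors made these counts with Cell Ranger 3.1.0 (STAR 2.5.1b, Macaca_fascicularis_5.0) and used Seurat 3.1.3, and barcodes called as cells were deposited before their cell filter. The filter of the study's methods was applied, from 200 up to 4000 genes and no more than 20% of UMIs from mitochondrial genes (123 barcodes removed, 71 by too few genes, 7 by too many and 79 by mitochondrial share, some by more than 1 limit), which kept more cells here than the study states. Levels are CPM computed here from the summed counts. Clustering used Seurat 5.3.0 (R 4.3.3; 2000 variable genes, of which 1979 were used after 53 member, homing, glycan and chemokine rows were taken out, 20 components, resolution 0.8), with 1 cluster divided again. Clusters were named from marker lists. Scrublet assumed 6% doublets. Thinning drew 2200 UMIs per cell, and a count of 0 was given the limit of 3 counts. Ratios are of summed counts with exact binomial intervals, and a gene entered a gate comparison at 50 UMIs or more. The calculations ran in Python 3.11.15 with scipy 1.17.1 and scanpy 1.11.5 and were tested on simulated data.

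The gate thresholds of 144 and 419 were given with the choice of members, and a mixture refitted here gave 146 and 505, which is among the alternatives. The members, gene lists and named genes were chosen with earlier results of these data known. Named genes were the 8 leading genes of each member among genes in enough of its cells, the 3 most alike over clusters, and the listed homing, glycan, chemokine and lineage genes, some of which are not reported here. *LZTFL1* and the cluster and gate pairs named within clusters were chosen after their values were seen. *CCR1*, *CCR8*, *CXCR2*, *S1PR5*, *ITGAL*, *FUT4*, *FUT5*, *FUT6*, *CCL3*, *CCL4*, *XCL1*, *XCL2*, *AHR*, *MAF*, *TRDC* and *KLF2* were not used here. Alternatives changed the filter, tag thresholds, thinning depth and seed, clustering resolution, scaling and cells used. The refitted thresholds, the divided cluster and the comparisons within non-naive cells were chosen after seeing the data. No coordinates or sequences are printed, since the RefSeq gene table used for neighbouring genes is of another build.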

Additional observations from a re-analysis of the deposited data

How the results depend on the processing

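Of the main counts under the alternatives, 50 were close to the reported value and 9 were not. The 6 members at least 2-fold higher in CD4hiCD8hi than in CD4hiCD8lo cells became 1 (*FUT7*) among non-naive cells. The 2 members lower in CD4loCD8hi than in CD4hiCD8lo cells became 4 with the CD4 threshold times 0.7 and 0 of 3 tested with the CD8 threshold times 0.7. The 11 pairs found together became 3 at 1500 UMIs, 7 with another seed, 1 (*CCR6* with *CCR9*) at 2 or more UMIs per gene, 7 outside naive-like cells, and 3 and 4 within non-naive CD4hiCD8lo and CD4hiCD8hi cells, so the list of pairs rests on few cells. Ratios of observed over product that crossed 1 were those of *CCR4* with *CCR10* (0 at 1500 UMIs and 0 at 2 or more UMIs), *CCR4* with *CXCR3* (0.799 at 3000 UMIs, 0.745 in CD4hiCD8hi), *CCR6* with *CXCR3* (0.569 at 1500, 0.943 at 2 or more UMIs), *CCR9* with *CXCR3* (0.746 at 1500, 0.702 at 3000, 0 at 2 or more UMIs, 0.59 in CD4hiCD8hi) and *CXCR3* with *FUT7* (0.726 in CD4hiCD8hi). *TNFSF9* in *FUT7* cells went from a log2 ratio of 3.90 to -0.81 among non-naive cells. The cause of these changes was not tested. Of the single values, 629 were close to the reported one, 78 moved and 12 crossed to the other direction. No paired analysis was possible because each library type is 1 sample of 1 animal, and no replicate could be left out. Depth limits *CCR10* and *FUT7* most.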

Other observations

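Other homing genes also differed between the clusters in which the members peaked. The *IL22*/*IL17A* cells, highest for *CCR6* and *CCR9*, had the highest levels of *GPR15* (34.9 CPM, 12 UMIs), *ITGB7* (425 CPM) and *CCR2* (37.8 CPM, 13 UMIs), and *ITGA4* was at 646 CPM there. *CX3CR1* was highest in CD4 CTL-like cells (283 CPM), where *CCR7* was at 14.9 CPM, and *CXCR6* in the *TRAV10*/*ZBTB16* cluster (60.1 CPM, 10 UMIs). *CCL5* was at 4835 CPM in innate-like, 1465 in CD8 CTL-like and 1281 in CD4 CTL-like cells, and at 1.57 CPM in naive-like cells. *CXCL10* had 43 UMIs, of which 41 were in the 19 monocyte-like cells. *CCL20*, the *CCR6* ligand, had 8 UMIs in 5 cells.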
